A study of Mus musculus with 69 samples.

Results

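The genes followed here are the 3 SoxB1 transcription factors Sox1, Sox2 and Sox3 and 7 further regulators of neural progenitors in the developing spinal cord, Pax6, Irx3, Olig2, Neurog2, Dbx1, Nkx6-1 and Hes5. They were taken by name, as the rows of the deposited count table with these symbols, which makes 10 of its 55367 gene symbols, and each has a value in all 69 libraries, which is 0 in 28 of them for Dbx1, 7 for Olig2, 3 for Neurog2 and 1 for Nkx6-1. The study mixed fluorescent clones of E14Tg2A mouse embryonic stem (mES) cells into mosaic gastruloids, aggregates that form the body axis and the germ layers in culture, and asked how cells that lack p53 fare against WT cells and what happens to the WT cells beside them. The WT–mCherry clone carries an H2B–mCherry label under the EF1α promoter and the WT–emiRFP clone an H2B–emiRFP670 label under the CAG promoter. The p53KO–emiRFP cells are 1 clone, made from the WT–emiRFP clone, with a homozygous frameshift in Trp53 and selection with an inhibitor of Mdm2. Pooled gastruloids were sorted by FACS for colour at 48, 72, 96, 120 and 144 h, which gave WT–mCherry and WT–emiRFP cells of WT + WT gastruloids (150 cells of each clone at the start) and WT–mCherry and p53KO–emiRFP cells of WT + p53KO gastruloids (150 and 25 cells). All gastruloids were grown in N2B27 with a pulse of the Wnt agonist CHIR99021 (3 µM) from 48 to 72 h. At 0 h the 3 clones were sampled as mES cells in serum and LIF, so the step from 0 to 48 h also changed medium and culture form. Each of these 23 groups had 3 replicates, which come from separate experiments.

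SoxB1 factors are HMG box proteins that bind enhancers of neural genes and hold progenitors in an undifferentiated, dividing state. Sox2 is also a core factor of pluripotency and is present in epiblast, germ cells and the neuromesodermal progenitors of the tailbud, Sox3 is present in epiblast and then neural plate, and Sox1 is the member most restricted to the neural plate and tube. In the spinal cord, retinoic acid and a ventral to dorsal gradient of Sonic hedgehog then divide SoxB1 positive progenitors into domains. Pax6, Irx3 and Dbx1 are homeodomain factors of the middle of that axis, with Dbx1 limited to a narrow domain of interneuron progenitors, while Nkx6-1 and Olig2 mark ventral domains and Olig2 those of motor neurons. Neurog2 is a proneural factor that drives progenitors towards neurons, and Hes5 is a Notch target that holds them back.

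Promoter sequences are shown for 4 of the genes, for Sox1 and Sox2 because these SoxB1 genes moved in opposite directions in p53KO–emiRFP cells, and for Dbx1 and Hes5 because they hold matches to motifs of the factors discussed here. Each runs from 250 bases before to 50 bases after a RefSeq start site on GRCm38.p6 and reads 5′ to 3′ on the gene's strand, and 9 of the 10 genes had such an entry, with 2 for Pax6. Capitals mark exact matches on either strand to the octamer ATGCAAAT of POU factors, to the SOX motif ACAATG and to the motif GTGGGAA of RBPJ, the DNA-binding partner of Notch. Sox1 (chr8:12395269-12395568, plus strand), Sox2 (chr3:34649745-34650044, plus strand), Dbx1 (chr7:49636786-49637085, minus strand) and Hes5 (chr4:154960673-154960972, plus strand) read as follows.
Sox1: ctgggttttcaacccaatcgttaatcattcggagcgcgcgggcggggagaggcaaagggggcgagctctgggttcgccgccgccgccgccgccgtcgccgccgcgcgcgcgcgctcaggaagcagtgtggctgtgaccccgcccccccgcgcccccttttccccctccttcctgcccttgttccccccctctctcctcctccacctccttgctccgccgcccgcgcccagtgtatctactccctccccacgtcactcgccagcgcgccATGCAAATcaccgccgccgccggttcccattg
Sox2: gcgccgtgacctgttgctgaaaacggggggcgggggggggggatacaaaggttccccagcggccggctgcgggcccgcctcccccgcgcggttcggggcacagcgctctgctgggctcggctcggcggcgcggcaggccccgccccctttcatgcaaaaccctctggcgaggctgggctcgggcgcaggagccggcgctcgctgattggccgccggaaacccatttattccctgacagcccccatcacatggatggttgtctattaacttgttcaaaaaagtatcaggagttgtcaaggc
Dbx1: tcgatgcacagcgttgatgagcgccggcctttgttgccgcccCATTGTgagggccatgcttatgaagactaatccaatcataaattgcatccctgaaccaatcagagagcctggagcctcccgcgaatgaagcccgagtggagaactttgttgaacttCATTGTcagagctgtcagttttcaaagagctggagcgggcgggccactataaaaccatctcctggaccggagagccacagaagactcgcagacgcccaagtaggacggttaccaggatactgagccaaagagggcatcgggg
Hes5: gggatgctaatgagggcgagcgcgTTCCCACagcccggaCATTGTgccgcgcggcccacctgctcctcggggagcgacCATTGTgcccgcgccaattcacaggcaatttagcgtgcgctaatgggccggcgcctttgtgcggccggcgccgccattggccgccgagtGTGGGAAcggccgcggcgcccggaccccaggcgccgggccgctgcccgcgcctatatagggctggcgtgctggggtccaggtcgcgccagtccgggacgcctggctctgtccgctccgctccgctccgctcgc
The Sox1 window held the octamer once, 18 bases after the start, and 1.74% of the 32851 RefSeq promoters of the same length hold it. The Sox2 window held none of the motifs. Dbx1 had the SOX motif at 208 and 92 bases before the start, Hes5 had it at 211 and 172 bases before the start, and Olig2 had it at 68 bases before the start, against 12.6% of all promoters with a match. Hes5 also had the RBPJ motif at 226 and 83 bases before the start, and 6.38% of all promoters hold it. The p53 half-site, searched under that name, was in none of the windows of these genes and in 8.36% of all promoters. A match describes these letters only, and no match says nothing about binding elsewhere.

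The libraries held 26722541 to 72981570 counts (median 53098728), and levels below are normalized counts, that is counts divided by a median-ratio size factor. Trp53 checked the labels: its group means were 1621 to 2484 in the 6 p53KO groups and 14611 to 25497 in the 17 WT groups. H2bc14 was high in all emiRFP libraries and served as a measure of emiRFP RNA in the sorted WT–mCherry cells, whose purity after the sort was not checked in the study. In WT–mCherry libraries beside p53KO cells it was 16.9%, 2.39% and 9.23% of the level of the p53KO partner at 144 h and 7.46%, 3.01% and 6.66% at 120 h, against 2.12%, 0.191% and 1.7% beside WT cells at 144 h. Levels come from bulk RNA of sorted cells, in which fewer cells of a type and less RNA per cell cannot be told apart. Differences within a time point are log2 fold changes ± SE from edgeR's quasi-likelihood test with Benjamini-Hochberg adjustment over all tested genes, called at 0.05, and the p-values describe the spread between these replicates.

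In WT cells the SoxB1 genes followed separate courses. Sox2 was highest in mES cells, where the 6 WT libraries had 23588 to 29213 normalized counts (median 24615), fell to 3928 to 6895 (median 4591) at 72 h and came back to 11129 to 17512 (median 14521) at 144 h. Its steps were -1.61 ± 0.05 from 0 to 48 h, -0.77 ± 0.05 to 72 h, 0.50 ± 0.05 to 96 h, 0.64 ± 0.05 to 120 h and 0.42 ± 0.05 to 144 h on the log2 scale, and all passed the test (largest edgeR adjusted p = 9.3e-11). Sox3 was low in mES cells, at 79.4 to 156, and peaked at 48 h with 1784 to 2374 in the 9 sorted WT libraries, a rise of 4.21 ± 0.13. It then fell at 72 and 96 h and rose again by 0.45 ± 0.09 at 120 h. Sox1 stayed between 74.4 and 228.1 from 48 to 96 h and reached 490.4 to 913 at 120 h, a rise of 1.95 ± 0.10 (edgeR adjusted p = 2.1e-24). From 120 to 144 h neither Sox1 (-0.10 ± 0.09) nor Sox3 (-0.03 ± 0.09) passed the test in the mean of the WT populations. The populations differed, and their steps were not tested singly. The Sox1 mean went from 538 ± 47.3 to 383 ± 53.4 in WT–emiRFP cells (SD, n = 3). In WT–mCherry cells it went from 898 ± 13.3 to 963 ± 85.4 beside WT cells and from 636 ± 94.1 to 685 ± 112 beside p53KO cells. Sox3 means went from 997 ± 41.2 to 797.5 ± 165, from 1210 ± 90.1 to 1454 ± 91 and from 1200 ± 219 to 1164 ± 248 in that order.

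The other genes had different first rises. Irx3 and Pax6 both had an early peak, Pax6 in mES cells with 581 to 1332 and Irx3 at 48 h with 199.9 to 274, and both were lowest among gastruloid times at 72 h with 31.6 to 70.2 and 47.6 to 82.4. Irx3 then rose by 1.16 ± 0.14 at 96 h and by 2.72 ± 0.12 at 120 h, and Pax6 by 1.20 ± 0.11, 1.78 ± 0.08 and, from 120 to 144 h, 1.81 ± 0.07. Hes5 passed the test from 0 to 48 h at low levels, with 1.05 to 6.33 and then 3.52 to 14.6. At 96 h Neurog2 went from at most 4.95 in the 9 WT libraries at 72 h to 22.6 to 34.7, and Hes5 from at most 12.02 to 52.3 to 187, and both passed the test. Neurog2 then fell by 1.23 on the log2 scale (SE 0.23) at 120 h, the only fall called at that step, and rose by 1.53 ± 0.22 at 144 h. Olig2 and Dbx1 were at or close to 0 until 96 h, with at most 6.93 and 3.46 in any WT library. At 120 h they had 10.3 to 27.7 and 11.6 to 51.3, and at 144 h 18.2 to 158 and 152 to 1019, and both steps passed the test for both genes. Nkx6-1 was at most 7.23 at 48 h and had 13.4 to 28.6 at 72 h and 15.6 to 58.7 at 96 h. From 96 to 120 h it moved by -0.45 ± 0.20, which was not called (edgeR adjusted p = 0.055), and from 120 to 144 h it rose by 1.10 ± 0.19. In the mean of the WT populations Hes5 was the only gene called as a fall at this last step, by 0.84 on the log2 scale (SE 0.19, edgeR adjusted p = 0.00019), but the populations differed. The WT–emiRFP mean was 85.7 ± 9.59 at 120 h and 39.3 ± 17.9 at 144 h. The WT–mCherry mean was 204.2 ± 50.6 and then 54.6 ± 38.0 with p53KO neighbours, but 95.2 ± 21.4 and then 135.3 ± 35.2 with WT neighbours (SD, n = 3), and these steps were not tested singly. Without replicate 2 the mean step was -0.52 and was not called (edgeR adjusted p = 0.071).

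**Figure D1:**
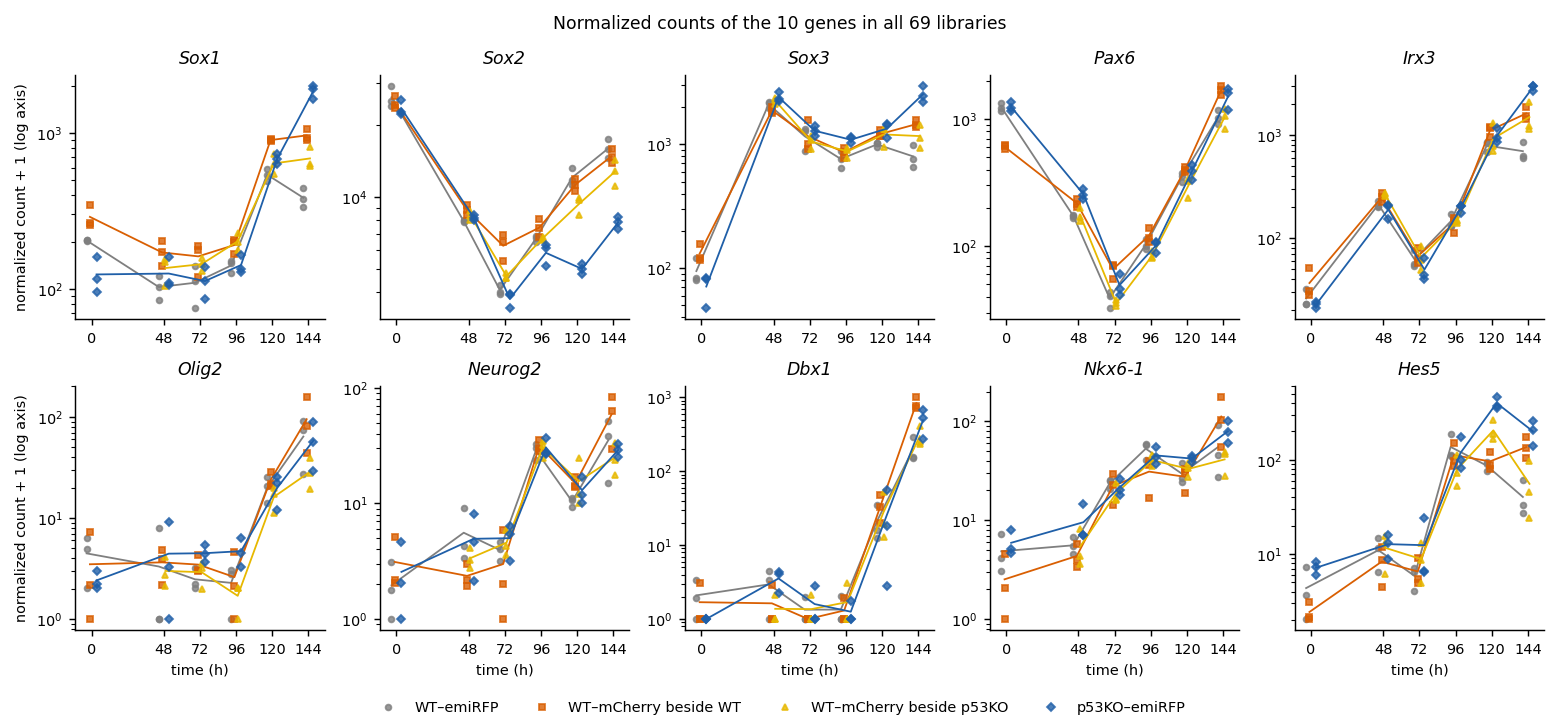
Normalized count plus 1 (log axis) against time in hours for each gene, with 1 mark per library and lines through the means of 3 replicates. Sox2 of p53KO–emiRFP cells lies below all 9 WT libraries from 72 h on, Sox1, Sox3 and Irx3 of p53KO–emiRFP cells lie above all 9 at 144 h, and Dbx1 is near 0 until 96 h in every population.

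Of the 10 genes, 6 were called in WT cells from 0 to 48 h (background 70.3% of 21132 tested genes), 5 from 48 to 72 h (66.9%), 8 from 72 to 96 h (58.6%), 8 from 96 to 120 h (56.8%) and 8 from 120 to 144 h (55.4%). In the first steps these shares lie near or below the background, so the number called is not a result about these genes. Of the 8 called at each of the last 3 steps, 7 rose and 1 fell in the mean of the WT populations, which did not all move alike: from 120 to 144 h Irx3, called as a rise, had lower means in WT–emiRFP cells, 794 ± 89.7 and then 699.7 ± 147 (SD, n = 3). In p53KO–emiRFP cells the numbers were 4 (59.5%), 5 (46.4%), 6 (44.5%), 8 (34.9%) and 10 (22.7%). From 120 to 144 h all 10 changed in p53KO–emiRFP cells, with 9 rises and the fall of Hes5 (-1.0 ± 0.29, edgeR adjusted p = 0.008, and 0.057 with DESeq2). Without replicate 2 that number was 6, and from 96 to 120 h it was 5 without replicate 1. The SoxB1 steps of p53KO–emiRFP cells at that point were 1.45 ± 0.16 for Sox1, 0.92 ± 0.16 for Sox3 and 0.65 ± 0.08 for Sox2, each past the test.

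At 144 h p53KO–emiRFP cells had less Sox2 and more Sox1, Sox3 and Irx3 than their WT–emiRFP counterparts. At this time 7 of the 10 genes were called, 6 higher and 1 lower, against a background of 65.3% of 19431 tested genes called (33.1% higher and 32.1% lower). The number called is close to the background, and it is the direction and size of each gene that follow. The median difference of the 10 genes was 0.93 and that of all tested genes 0.01 on the log2 scale. With the replicate number as a block, Nkx6-1 was called as well (0.62, edgeR adjusted p = 0.02). There are 3 WT populations that can serve as reference, and they differ, so the 7 genes called at 144 h are given against WT–emiRFP cells of WT + WT gastruloids, the parent clone, and then against WT–mCherry cells of WT + WT gastruloids and WT–mCherry cells of the same gastruloids. Against these other references 6 genes were called each, 3 higher and 3 lower (background 54%) and 5 higher and 1 lower (background 64.2%). The median difference of the 10 genes was -0.35 against the former and 0.96 against the latter, so its sign turned with the reference. The 3 comparisons share the p53KO–emiRFP libraries.

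Sox1, the neural plate gene, had 1906, 2008 and 1638 normalized counts in the p53KO–emiRFP libraries at 144 h and 440.3, 373 and 335 in WT–emiRFP libraries. WT–mCherry libraries had 1061, 925 and 904 beside WT cells and 814, 631 and 610.0 beside p53KO cells. The lowest p53KO library was above the highest of the 9 WT libraries, and the WT populations did not overlap with each other either. The difference was 2.27 ± 0.13 against WT–emiRFP cells (edgeR adjusted p = 4.6e-09), 0.94 ± 0.12 against WT–mCherry cells of WT + WT gastruloids (edgeR adjusted p = 2.3e-05) and 1.43 ± 0.13 against those of the same gastruloids (edgeR adjusted p = 3.3e-07). At 120 h the order was another. The p53KO–emiRFP libraries had 729.6, 679 and 630.2, above WT–emiRFP with 585, 490.4 and 539.8 and below WT–mCherry beside WT cells with 894, 913 and 888. Sox1 was thus higher than in WT–emiRFP cells by 0.34 ± 0.11 (edgeR adjusted p = 0.016, not called without replicate 2 at 0.12), lower than in WT–mCherry cells of WT + WT gastruloids (-0.40 ± 0.10, edgeR adjusted p = 0.0059), and not called against the same gastruloids (0.09 ± 0.10, edgeR adjusted p = 0.51).

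Sox3 had 2460, 2975 and 2177 normalized counts in p53KO–emiRFP libraries at 144 h, against 978, 760.2 and 655 in WT–emiRFP libraries. WT–mCherry libraries had 1556, 1427 and 1380 beside WT cells and 1429, 1125 and 938 beside p53KO cells, so again no WT library reached the p53KO range. The difference was 1.67 ± 0.16 (edgeR adjusted p = 7.3e-07), 0.80 ± 0.16 and 1.13 ± 0.16 against the 3 references in the order above, and all were called. At 120 h the p53KO libraries had 1464, 1428 and 1122 and overlapped with WT, and the call against WT–emiRFP cells (0.42 ± 0.13, edgeR adjusted p = 0.012) did not hold against the other references (0.15 and 0.16) or without replicate 1 or 2 (edgeR adjusted p = 0.13 and 0.089). At 96 h Sox3 was higher in p53KO–emiRFP cells against all 3 references, by 0.52 ± 0.11, 0.34 ± 0.11 and 0.31 ± 0.11.

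Sox2 went the other way. At 144 h the p53KO–emiRFP libraries had 7323, 8247 and 7864 normalized counts, the WT–emiRFP libraries 15784, 14521 and 17512, and the WT–mCherry libraries 14643, 13846 and 15892 beside WT cells and 12854, 11129 and 14229 beside p53KO cells. At 120 h they were 5219, 5003 and 4748 against 11776, 11176 and 13153, 10604, 11912 and 11237, and 9904, 8354 and 9679. At both times the highest p53KO library was below the lowest of the 9 WT libraries. The difference from WT–emiRFP cells was -1.27 ± 0.08 at 120 h (edgeR adjusted p = 1.4e-08) and -1.03 ± 0.09 at 144 h (edgeR adjusted p = 2.6e-07), and it was called against the other references as well, with -1.17 and -0.90 at 120 h and -0.92 and -0.71 at 144 h. At 96 and 72 h the p53KO libraries were also below all WT libraries, at 5111 to 6255 against 6449 to 8111 and at 3422 to 3920 against 3928 to 6895. There Sox2 was not called against WT–emiRFP cells (-0.20 ± 0.07, edgeR adjusted p = 0.065, and 0.0045 with the replicate block at 96 h, and -0.12 ± 0.08 at 72 h). It was called against WT–mCherry cells of WT + WT gastruloids at both times (-0.35 and -0.74) and against those of the same gastruloids at 72 h (-0.32).

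**Figure D2:**
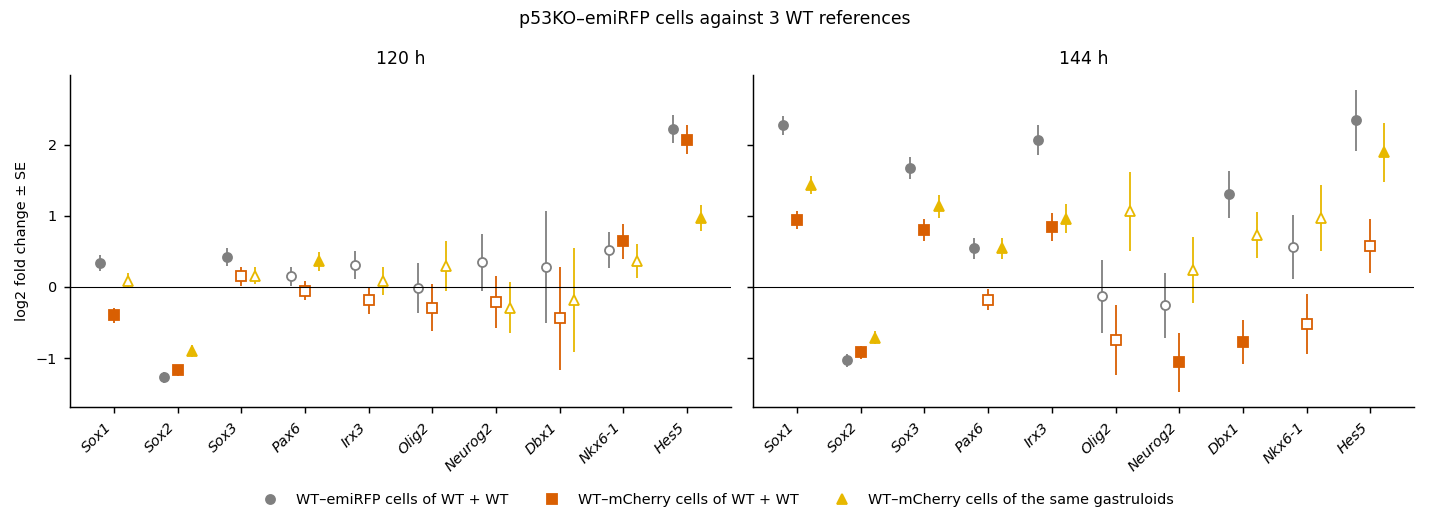
Log2 fold change ± SE of the 10 genes in p53KO–emiRFP cells at 120 and 144 h against 3 WT references, with filled marks for genes past the edgeR threshold. Sox2 is below 0 against every reference at both times, Sox1, Sox3 and Irx3 are above 0 against every reference at 144 h, and Dbx1 and Pax6 at 144 h lie on either side of 0 depending on the reference.

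Per kilobase of exon, the balance within the SoxB1 family shifted. Sox2 made up 99.3% ± 0.139 of the SoxB1 sum per kilobase in WT–emiRFP mES cells and 99.5% ± 0.117 in p53KO–emiRFP mES cells (SD, n = 3). At 144 h p53KO–emiRFP cells had a Sox2 share of 70.3% ± 2.64. It was 94.3% ± 1.27 for WT–emiRFP, and for WT–mCherry it was 88.8% ± 1.09 with WT neighbours and 89.7% ± 2.28 with p53KO neighbours (SD, n = 3 each). Sox3 made up 22.6% ± 2.22 in p53KO–emiRFP cells and 4.74% ± 1.10, 8.72% ± 0.821 and 8.25% ± 1.94 in the WT populations in that order, and Sox1 made up 7.08% ± 0.584 against 0.971% ± 0.171, 2.47% ± 0.270 and 2.07% ± 0.350. For each gene the 3 p53KO libraries lay outside the range of the 9 WT libraries. The sum itself was 5409 ± 397 normalized counts per kilobase in p53KO–emiRFP cells and 6898 ± 729.5 to 8214 ± 698 in the WT populations. At 120 h the Sox2 share was 75.5% ± 1.63 in p53KO–emiRFP cells against 86.3% ± 2.59 to 90.8% ± 0.506 in WT. A share of this size was not new at 120 h. At 72 h it was 73.8% ± 2.3 in p53KO–emiRFP cells against 77.2% ± 4.06 in WT–emiRFP to 83.7% ± 3.06 in WT–mCherry cells beside WT cells. The p53KO–emiRFP and WT–emiRFP libraries overlapped then. At 96 h it was 83.5% ± 2.14 against 87.5% ± 0.951 to 89.1% ± 1.56 in WT. An exact test of 3 against 3 libraries cannot give a p below 0.1, so none is given for shares.

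**Figure D3:**
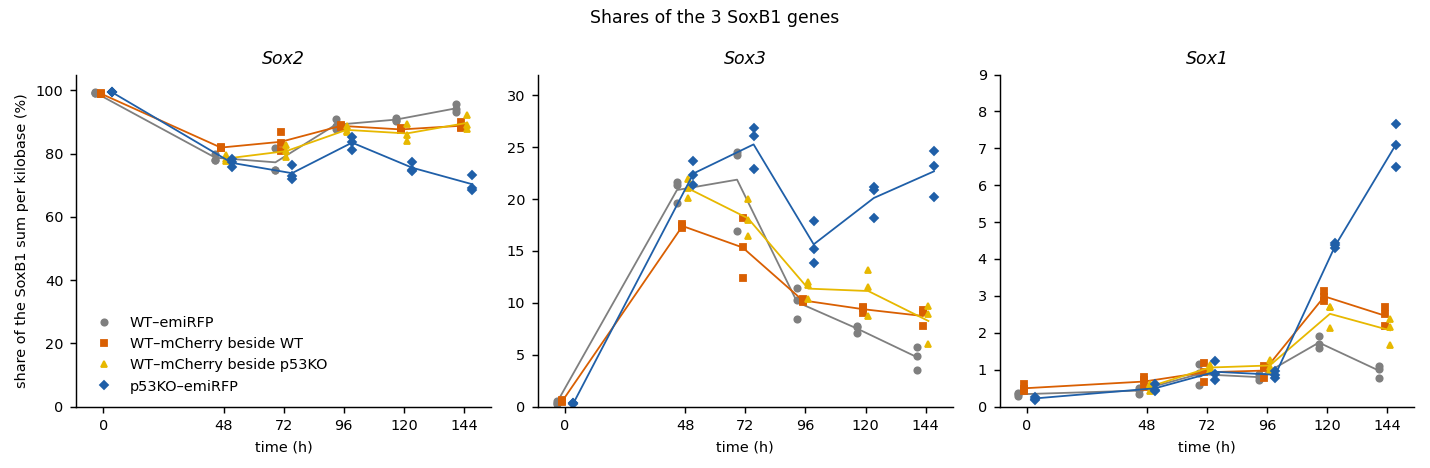
Share (%) of each SoxB1 gene in the sum of the 3 genes, in normalized counts per kilobase of exon, against time in hours, with 1 mark per library and lines through the means (the vertical axes differ in range). From 120 h on the p53KO–emiRFP libraries have the lowest Sox2 share and the highest Sox3 and Sox1 shares.

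Sox2 is itself a gene of pluripotent and germ cells, and markers of these cells moved in the same direction. All 11 markers (Pou5f1, Nanog, Zfp42, Klf4, Esrrb, Dppa5a, Prdm14, Dppa3, Dnd1, Nanos3 and Tfap2c) were lower in p53KO–emiRFP cells, against WT–emiRFP, at 120 h (median -2.46) and at 144 h (median -2.38), and all 11 were lower against both other references too. Of all tested genes 23.7% were called lower than in WT–emiRFP cells at 120 h and 32.1% at 144 h. At 120 h Nanog stood at 2514 ± 120 normalized counts for p53KO–emiRFP against 17682 ± 777 for WT–emiRFP, and Zfp42 had 3201 ± 675 and 20217 ± 1840 at 144 h (SD, n = 3). The sum of the 11 markers was 252525 to 329631 in mES cells and at 144 h 179770 to 193997 in WT–emiRFP libraries, 126405 to 139958 in WT–mCherry libraries beside WT cells, 146180 to 149278 beside p53KO cells and 29008 to 40314 in p53KO–emiRFP libraries. None of the 11 was at 0 in all libraries of a population. The part of these cells in the Sox2 difference was not tested. At 144 h Sox1 and Sox3 were highest in the population in which that sum was lowest. At 120 h p53KO–emiRFP cells again had the lowest sum, 23354 to 26177, but Sox1 was highest in WT–mCherry cells beside WT cells, with 898 ± 13.3 against 679.5 ± 49.7 (SD, n = 3) and a sum of 104292 to 129877. Between the clones of WT + WT gastruloids at 144 h, WT–emiRFP had the larger sum and the lower Sox1 and Sox3.

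**Figure D4:**
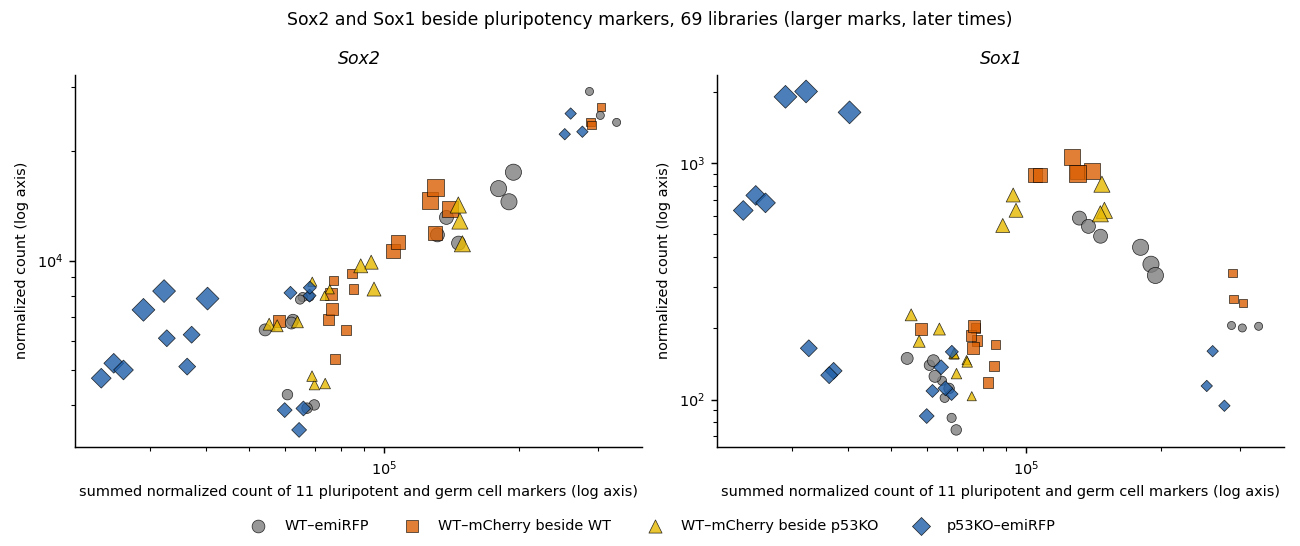
Normalized count of Sox2 and of Sox1 (log axes) against the summed normalized count of 11 pluripotent and germ cell markers (log axis) in the 69 libraries, with larger marks for later times. At 144 h the p53KO–emiRFP libraries have marker sums of 29008 to 40314 with 7323 to 8247 counts of Sox2 and 1638 to 2008 of Sox1, and the WT–emiRFP libraries have sums of 179770 to 193997 with 14521 to 17512 of Sox2 and 335 to 440.3 of Sox1.

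Among the middle domain genes, Irx3 followed Sox1. At 144 h it had 3036, 3044 and 2679 normalized counts in p53KO–emiRFP libraries, 869, 626 and 604 in WT–emiRFP libraries, and 1905, 1437 and 1549 and 2118, 1164 and 1237 in WT–mCherry libraries beside WT and p53KO cells. Every p53KO library was above every WT library, and the difference was called against all 3 references, at 2.06 ± 0.21 (edgeR adjusted p = 8.6e-07), 0.84 ± 0.20 and 0.96 ± 0.20. Pax6 had 1597, 1717 and 1170 in p53KO–emiRFP libraries and 1174, 906 and 1009 in WT–emiRFP libraries, but 1828, 1556 and 1694 in WT–mCherry libraries beside WT cells, with which the p53KO range overlapped. It was called against WT–emiRFP cells (0.54 ± 0.15, edgeR adjusted p = 0.0061, and 0.071 without replicate 2) and against the same gastruloids (0.54 ± 0.15), and not against WT–mCherry cells of WT + WT gastruloids, where the value was -0.18 ± 0.15. Dbx1 had 674, 519 and 271 in p53KO–emiRFP libraries, which overlapped with the 287, 152 and 155 of WT–emiRFP libraries and lay below the 1019, 722 and 759 of WT–mCherry libraries beside WT cells. Its call thus turned with the reference, at 1.30 ± 0.33 (edgeR adjusted p = 0.003) and -0.77 ± 0.31 (edgeR adjusted p = 0.047), and was lost against the same gastruloids (0.73 ± 0.32, edgeR adjusted p = 0.058).

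The Notch target Hes5 differed at both late times. At 120 h it had 357, 467 and 373 normalized counts in p53KO–emiRFP libraries and 89.3, 93.0 and 74.9 in WT–emiRFP libraries, with 79.6, 120 and 86.4 in WT–mCherry libraries beside WT cells and 163, 261 and 188 beside p53KO cells. The p53KO libraries were above all 9 WT libraries, and WT–mCherry cells from the same gastruloids were next. The differences were 2.22 ± 0.20 (edgeR adjusted p = 5.6e-07), 2.07 ± 0.20 and 0.97 ± 0.18, all called. At 144 h Hes5 had 256, 204 and 139 in p53KO–emiRFP libraries and 59.7, 26.1 and 32.2 in WT–emiRFP libraries (2.34 ± 0.43, edgeR adjusted p = 0.00026), but overlapped with WT–mCherry libraries beside WT cells, which had 172.5, 102.5 and 131 (0.57 ± 0.38, edgeR adjusted p = 0.23). Against the same gastruloids it was called (1.89 ± 0.41). The ventral genes and the proneural gene were not called against WT–emiRFP cells at 144 h, except Nkx6-1 with the replicate block, as given above. Olig2 had 28.1 to 88.2 in p53KO–emiRFP and 26.1 to 89.9 in WT–emiRFP libraries (-0.13 ± 0.51), Neurog2 had 24.1 to 31.9 and 13.9 to 51.2 (-0.26 ± 0.45), and Nkx6-1 had 59.2 to 99.2 and 26.1 to 91.0 (0.56 ± 0.45). The SEs of these 3 genes are several times those of the SoxB1 genes, and a p that misses the threshold does not show equal levels. Neurog2 was lower than in WT–mCherry cells of WT + WT gastruloids (-1.06 ± 0.42, edgeR adjusted p = 0.046).

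Earlier differences from WT–emiRFP cells were few. At 0 h 5 genes had enough counts to be tested and 1 was called (background 6.13%): Sox1 had 114, 94.1 and 160.1 normalized counts in p53KO–emiRFP and 204, 201 and 206 in WT–emiRFP mES cells (-0.74 ± 0.19, edgeR adjusted p = 0.038), a call lost without replicate 2 (edgeR adjusted p = 0.51). At 48 h 1 of 6 tested was called (22%), Pax6 with 251.5, 233 and 282 against 172, 167 and 174 (0.58 ± 0.11, edgeR adjusted p = 0.0016), and with the replicate block Sox3 too (0.19, edgeR adjusted p = 0.0059). The Pax6 call was not kept against WT–mCherry cells of WT + WT gastruloids (0.24, edgeR adjusted p = 0.13), where Sox3 (0.36) and Irx3 (-0.40) were called instead, and against the same gastruloids Pax6 (0.56) and Irx3 (-0.50) were called. At 72 h none of 6 was called by edgeR (29.1%), none had an unadjusted p under 0.05 and DESeq2 called 0. Against the other references 1 was called each, Sox2 as given above (backgrounds 29.5% and 31.4%). At 96 h 2 of 8 were called (23.3%), Sox3 as above and Irx3 with 205.2, 173.5 and 202 against 130, 131 and 171 (0.44 ± 0.14, edgeR adjusted p = 0.038, lost without replicate 1 or 2). Irx3 was also called against the other references (0.49 and 0.42). These references gave 4 and 3 calls at 96 h (24.8% and 23.6%), and in both Sox1 was lower (-0.43 and -0.50), with 132, 127 and 165 in p53KO–emiRFP libraries against 166 to 228.1 in the WT–mCherry libraries. At 120 h 4 of 10 were called, 3 higher and 1 lower (51%, with 27.3% higher and 23.7% lower), and against the other references 4 (44.3%) and 3 (39.5%). The latter 3 were Sox2, Hes5 and Pax6 (0.36 ± 0.13, edgeR adjusted p = 0.043). With the replicate block Irx3 was called at 120 h as well (0.30, edgeR adjusted p = 0.023). Nkx6-1 was above all 9 WT libraries at 120 h, with 38.1 to 43.2 against 17.9 to 37.0, and was called against WT–mCherry cells of WT + WT gastruloids (0.64 ± 0.25, edgeR adjusted p = 0.049) and not against WT–emiRFP cells (0.52 ± 0.25, edgeR adjusted p = 0.095).

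At 144 h several of the 10 genes were lower in WT–mCherry cells that had grown beside p53KO cells than in those of WT + WT gastruloids, and for Pax6 and Dbx1 this held whichever replicate was left out. Of the 10 genes 7 were lower and none higher, against a background of 25.5% of 19431 tested genes called (15.4% lower and 10.1% higher), and the median difference was -1.01 against -0.03 over all tested genes. Dbx1 had 404, 248 and 234.5 normalized counts beside p53KO cells and 1019, 722 and 759 beside WT cells, without overlap (-1.50 ± 0.32, edgeR adjusted p = 0.0042). Pax6 had 1205, 833 and 1051 against 1828, 1556 and 1694, also without overlap (-0.72 ± 0.15, edgeR adjusted p = 0.004). Sox1 had 814, 631 and 610.0 against 1061, 925 and 904 (-0.49 ± 0.13, edgeR adjusted p = 0.012). Hes5 had 96.7, 44.01 and 22.97 against 172.5, 102.5 and 131 (-1.32 ± 0.41, edgeR adjusted p = 0.032). The ventral genes Olig2 (37.8, 26.8 and 18.2 against 80.5, 158 and 43.3) and Nkx6-1 (47.9, 45.9 and 26.9 against 103, 177 and 53.6) and the proneural Neurog2 (32.2, 22.96 and 16.6 against 61.9, 83.1 and 28.9) differed by -1.80 ± 0.53, -1.49 ± 0.45 and -1.30 ± 0.43 (edgeR adjusted p = 0.026, 0.026 and 0.038). Of the 7 genes called, Neurog2 was the one whose libraries overlapped between the groups. The share of all tested genes without overlap is not given here, and among called genes a lack of overlap adds no support to the calls.

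The remaining genes, Sox2 (-0.22 ± 0.09), Sox3 (-0.32 ± 0.16) and Irx3 (-0.11 ± 0.20), were not called, and with the replicate block Sox2 and Sox3 were (edgeR adjusted p = 0.014 and 0.018). Replicate 2 weighs on the number called: without it 2 of the 7 were called, Pax6 and Dbx1, which are the calls that also held without replicate 1 and without replicate 3. The WT–mCherry library of replicate 1 beside p53KO cells had the most emiRFP RNA (16.9% of its partner by H2bc14), and without that replicate 5 genes were called, among them Irx3. With the estimated emiRFP RNA subtracted 8 genes were called, Sox3 in addition, and the values of Sox1 and Hes5 became -0.76 and -1.84. At 120 h 2 of 10 were called (5.95%), in opposite directions. More were called with the replicate block, without the filter, with DESeq2 and with all 69 libraries, as given in the last section. Sox1 had 733, 631 and 545 beside p53KO cells against 894, 913 and 888 (-0.50 ± 0.10, edgeR adjusted p = 0.013), and Hes5 had 163, 261 and 188 against 79.6, 120 and 86.4 (1.11 ± 0.20, edgeR adjusted p = 0.0053). Neither gene's groups overlapped, while with 1 replicate left out the Sox1 call was lost each time and that of Hes5 without replicate 1 or 3.

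**Figure D5:**
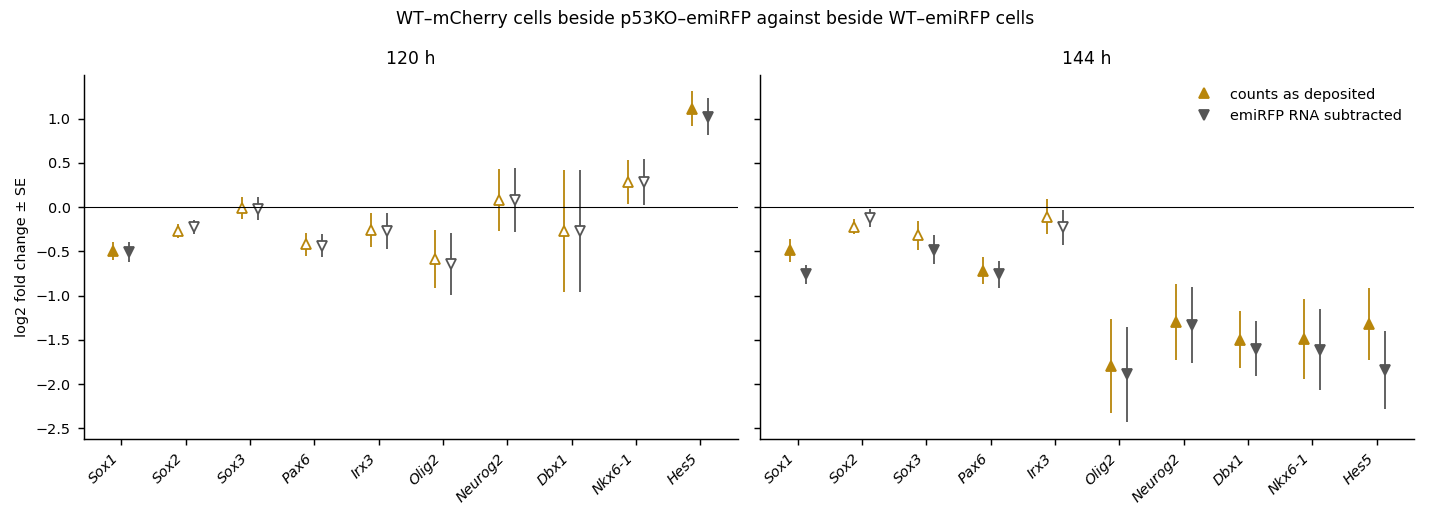
Log2 fold change ± SE of the 10 genes at 120 and 144 h, for WT–mCherry cells with p53KO neighbours against those with WT neighbours, from the counts as deposited and after subtraction of estimated emiRFP RNA, with filled marks for genes past the edgeR threshold. Hes5 is above 0 at 120 h and below 0 at 144 h, and the 7 genes called at 144 h from the deposited counts are all below 0.

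At the earlier times few of these genes were called in this comparison. At 48 h none of 6 tested was called by edgeR (background 0.0735%), 2 had an unadjusted p under 0.05, DESeq2 called 0, and the replicate block called 2, Sox3 (0.27, edgeR adjusted p = 0.0039) and Pax6 (-0.32, edgeR adjusted p = 0.045). Background shares are those of the fit without the block. The share of all tested genes called with the block is not given here, so the numbers called with it have no background. At 72 h 1 of 6 was called (0.559%): Sox2 had 4560, 4591 and 4812 normalized counts beside p53KO cells and 6452, 5366 and 6895 beside WT cells (-0.42 ± 0.08, edgeR adjusted p = 0.034), and it was not called when any of the replicates was left out. Pax6 had 34.6, 32.6 and 36.4 against 54.5, 70.2 and 69.4 (-0.90 ± 0.19, edgeR adjusted p = 0.054, and 0.022 with the replicate block). At 96 h none of 8 was called by edgeR (3.93%), 1 had an unadjusted p under 0.05, DESeq2 called 1, and the replicate block called 3, with Pax6 at -0.52, Hes5 at -0.51 and Sox2 at -0.15. Pax6 was below 0 in this comparison at every time from 48 to 144 h, and its libraries beside p53KO cells did not overlap with those beside WT cells at any of these times.

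The WT clones of WT + WT gastruloids also differed from each other at 144 h. At this time 6 of 10 genes were higher in WT–mCherry than in WT–emiRFP cells and none lower, against a background of 23.8% (13% higher and 10.8% lower), with a median of 0.97 against -0.01 over all tested genes. Dbx1 differed by 2.07 ± 0.33, Hes5 by 1.77 ± 0.43, Sox1 by 1.33 ± 0.13, Irx3 by 1.22 ± 0.20, Sox3 by 0.87 ± 0.16 and Pax6 by 0.72 ± 0.15. The libraries of the clones, whose values stand above, did not overlap for any of these 6 genes, which among called genes adds no support to the calls. Sox2 differed by -0.11 ± 0.09 (edgeR adjusted p = 0.43). With the replicate block Neurog2 and Nkx6-1 were called as well (0.79 and 1.05), and without replicate 2 Hes5 was not (edgeR adjusted p = 0.059). At 120 h 1 of 10 was called (1.24%), Sox1 with 0.74 ± 0.10 (edgeR adjusted p = 0.0032), lost without replicate 1 or 3, and the replicate block added Irx3 (0.49, edgeR adjusted p = 0.0074). At 96 h none of 8 was called by edgeR (2.15%), 2 had an unadjusted p under 0.05, DESeq2 called 0 and the block called 2, Sox1 (0.45) and Nkx6-1 (-0.82). At 72 h 2 of 6 were called (7.64%), Sox2 with 6452, 5366 and 6895 in WT–mCherry and 4009, 3928 and 4279 in WT–emiRFP libraries (0.62 ± 0.08, edgeR adjusted p = 0.00036) and Pax6 (0.77 ± 0.19), of which Sox2 was lost without replicate 1 and Pax6 whichever replicate was left out. At 48 h 1 of 6 was called (8.89%), Sox1 (0.75 ± 0.20, edgeR adjusted p = 0.028, lost whichever replicate was left out), and the block called 4 with Sox2, Sox3 and Pax6. At 0 h 1 of 5 was called (11.1%): Pax6 had 609, 581 and 622.5 in WT–mCherry and 1165, 1221 and 1332 in WT–emiRFP mES cells, and was lower by 1.04 on the log2 scale (edgeR adjusted p = 0.00011). The p53KO–emiRFP mES cells, with 1228, 1147 and 1356, differed from their WT–emiRFP parent clone by 0.00 ± 0.10.

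Of 15 other genes of neural progenitors (Sox21, Nes, Fabp7, Msi1, Cdh2, Ncam1, Pou3f2, Pou3f3, Zic1, Nr2f1, Hes3, Sall3, Zfp521, Ptprz1 and Lrp2), 12 were higher and 3 lower in p53KO–emiRFP cells, against WT–emiRFP, at 120 h, and 13 were higher and 1 lower at 144 h (median 1.79, against 0.01 over all tested genes). Of all tested genes 51% were called at 120 h (27.3% higher) and 65.3% at 144 h (33.1% higher). Ncam1, a neural adhesion molecule, had 8012 ± 247 against 919 ± 66.4 normalized counts at 144 h and Zic1, a zinc finger factor of the dorsal neural tube, 2261 ± 51.5 against 281 ± 39.8 (SD, n = 3), while Lrp2, an endocytic receptor, had 2957 ± 896 against 5674 ± 419. Against WT–mCherry cells of WT + WT gastruloids the numbers at 144 h were 9 higher and 2 lower (median 0.56), and against those of the same gastruloids 14 higher and 0 lower (median 1.23). In WT–mCherry cells beside p53KO cells 10 of these 15 were lower and 0 higher at 144 h (median -0.62, with 15.4% of all tested genes lower), and in the comparison of the WT clones 13 were higher in WT–mCherry cells and 0 lower (13% of all tested genes higher). Of the 16 tested genes of dorsoventral patterning other than those followed here, 4 were higher and 7 lower in p53KO–emiRFP than WT–emiRFP cells at 144 h, when 33.1% of all tested genes were higher and 32.1% lower. Against WT–mCherry cells of WT + WT and of the same gastruloids 2 and 4 were higher and 5 and 8 lower. Of the dorsal genes, some were higher and some lower: Pax3 and Msx1 had 3243 ± 559 against 632 ± 191 and 884 ± 78.4 against 138.5 ± 24.1, while Olig3 had 84.2 ± 18.7 against 485.5 ± 24.6. The ventral Nkx2-9 had 4.19 ± 4.26 against 64.5 ± 9.63. Of the neurogenesis genes 9 of 20 were higher and 7 lower, with Dll3, a Notch ligand family member, at 1599 ± 57.7 against 130.4 ± 14.7 and Stmn2, a gene of differentiating neurons, at 432 ± 31.1 against 3111 ± 163. The balance turned against WT–mCherry cells of WT + WT gastruloids, with 5 higher and 10 lower (median -0.62), and against the same gastruloids 11 were higher and 5 lower (median 0.59). Dll3 and Hes5 are also genes of the presomitic mesoderm or of Notch signalling outside the neural tube. Of 9 tested anterior neural genes 3 were higher and 4 lower, with Otx2 at 285 ± 39.9 against 1060 ± 154 and Gbx2 at 1451 ± 127 against 345 ± 43.9, and against the other references 2 and 3 were higher and 5 and 4 lower. Most tested genes were called at this time, so the numbers called in these 3 lists are no result about the lists.

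Markers of caudal and paraxial cells moved at the same times, and their part in the differences above was not tested. All 10 markers of caudal epiblast and neuromesodermal progenitors, cells that express Sox2 and Sox3 themselves, were higher in p53KO–emiRFP cells, again against WT–emiRFP, at 120 h (median 1.85) and 144 h (median 3.09). Of all tested genes 27.3% were called higher at 120 h and 33.1% at 144 h. The caudal markers were compared by their sums as well. The sum of these 10 was 21364 to 22690 normalized counts in p53KO–emiRFP libraries at 144 h, 2007 to 2516 in WT–emiRFP libraries, 2290 to 2760 in WT–mCherry libraries beside WT cells and 5444 to 6273 beside p53KO cells, and Cdx2 had 5778 ± 252 against 248 ± 35.4. Of 9 paraxial mesoderm markers 6 were higher at 120 h (median 1.67, but 3 with a median of 0.12 against the same gastruloids) and 9 at 144 h, with sums of 21631 to 28859 in p53KO–emiRFP and 3275 to 4539 in WT–emiRFP libraries at 144 h. Of 8 haematoendothelial markers 1 was higher and 4 lower at 144 h, and of 6 tested endoderm and notochord markers 2 were higher and 1 lower, shares at or below the 65.3% of all tested genes called. The haematoendothelial sum was nonetheless lower, at 2319 to 2807 in p53KO–emiRFP libraries against 7787 to 7866 in WT–emiRFP and 5877 to 6366 in WT–mCherry libraries at 144 h. Most of the gap to WT–emiRFP lay in a single gene, Pecam1, with 1032 ± 195 against 6126 ± 114 (SD, n = 3). The paper also used Pecam1 as a surface marker of pluripotency, so this sum says little about haematoendothelial cells. The caudal and paraxial markers called were all higher against the other references too, 10 and 9 against WT–mCherry cells of WT + WT gastruloids and 8 and 9 against those of the same gastruloids at 144 h. Of the haematoendothelial markers 1 was higher and 5 lower against the former and 4 higher and 2 lower against the latter, and of the endoderm and notochord markers 2 and 1 were higher and 1 and 3 lower. In WT–mCherry cells beside p53KO cells 8 of the 10 caudal markers and 6 of the 9 paraxial markers were higher at 144 h than beside WT cells, and 4 of the 11 pluripotent and germ cell markers (10.1% of all tested genes higher). The paraxial sum, however, overlapped, with 4429 to 9431 beside p53KO cells and 5853 to 8088 beside WT cells. These WT–mCherry libraries held emiRFP RNA at 2.39% to 16.9% of their p53KO partners by H2bc14, and its part in these marker counts was not tested.

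Some transcripts span these genes, overlap with them or lie next to them. Sox1ot and Sox2ot, non-coding transcripts that span Sox1 and Sox2 on the same strand without sharing exon bases, had group means of 117 ± 30.1 and 107 ± 22.8 normalized counts in p53KO–emiRFP cells at 144 h. Sox1ot was at a like level in WT–mCherry cells beside WT cells, with 108 ± 6.78. Sox1 shares 86 exon bases with Gm25239 on the same strand. Irx3 shares 124 exon bases with Irx3os and Hes5 shares 433 with Gm20421, both on the opposite strand, and the strand used in counting was not given in the sources used here, so reads over these bases cannot be assigned with certainty. Irx3os had 129 ± 9.69 in p53KO–emiRFP and 38.2 ± 9.07 in WT–emiRFP cells at 144 h. Olig1, the neighbour of Olig2, had group means of 9.41 to 16.4 at 144 h and, unlike Olig2, of 18.0 to 21.9 in mES cells, and Pax6os1 had at most 0.890 in any group.

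Over the 23 group means, on a log2 scale of normalized count plus 1, the genes whose pattern was most like that of Sox1 among 14078 genes were Magi3 (r = 0.945), Prkch (r = 0.944) and Fzd4 (r = 0.944). For Sox2 they were Ooep (r = 0.972), Itgal (r = 0.972) and Rbpj (r = 0.970), and for Sox3 Sall2 (r = 0.968), Zfp608 (r = 0.963) and Fads2 (r = 0.961). Within the set, Dbx1 and Olig2 were most alike (r = 0.95), and Sox1 was closer to Olig2 (r = 0.88), Dbx1 (r = 0.87) and Irx3 (r = 0.82) than to the other SoxB1 genes (r = 0.28 with Sox2 and 0.17 with Sox3). Sox2 was closest to Pax6 (r = 0.81), the other gene with high levels both in mES cells and at 144 h, and it ran opposite to Sox3 (r = -0.67). Neurog2 was closest to Hes5 (r = 0.86). These values describe 23 groups that share time points and clones.

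The difference between p53KO–emiRFP and WT–emiRFP cells itself changed from 120 to 144 h for 3 of the 10 genes (background 16.9%). It grew by 1.94 ± 0.23 for Sox1, by 1.75 ± 0.25 for Irx3 and by 1.25 ± 0.22 for Sox3, whereas that of Sox2 moved by 0.24 ± 0.12 (edgeR adjusted p = 0.17). The neighbour's difference in WT–mCherry cells changed for 2 (7.62%), Hes5 (-2.43 ± 0.45) and Nkx6-1 (-1.77 ± 0.47), the latter lost when any of the replicates was left out.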

How the data were processed

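Strand-specific polyA libraries were made from FACS-sorted cells of pooled gastruloids. The authors trimmed reads with Trim Galore 0.6.7, aligned them to GRCm38.p6 with STAR 2.7.11b and deposited whole-number counts of uniquely mapped reads per gene, with no normalization in the table. The strand setting of the counts was not given in the sources used here. Groups were taken from the sample labels and all columns of the table were used.

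Counts were divided by median-ratio size factors over all 69 libraries. Comparisons within a time point used edgeR 4.0.16 in R 4.3.3 (quasi-likelihood test, filterByExpr by group, all libraries of that time point), and time steps and changes of a difference used 1 model of all 69 libraries, in which WT was the mean of the 3 sorted WT populations or, at 0 h, of both clones. Benjamini-Hochberg adjustment ran over all tested genes with a threshold of 0.05, and the SE is the fold change divided by the square root of F. Values per kilobase used the union of exons of Gencode M21 models of the same build. Depth was 26722541 to 72981570 counts per library.

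Same-numbered replicates were judged to be paired where all 3 correlations of their deviations from the group means exceeded 0.1 (14106 genes), which held in 14 of 17 comparisons within a time point (range 0.0406 to 0.688). The models of the reported values held group only and left this pairing out. It entered only the alternative with the replicate number as a block. Tested on simulated data for p53KO–emiRFP against WT–emiRFP at 120 h (18551 genes), edgeR recovered 94% of 200 genes changed 2-fold, and 7.39% of its calls were unchanged genes. DESeq2 1.42.0 recovered 95%, with 16.7%.

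All 10 genes were followed in every comparison, and the text names those called and, of the others, those described at the late times. Of the other gene lists, counts were given with up to 2 called genes of largest rise and fall in p53KO–emiRFP against WT–emiRFP cells at 120 and 144 h, from which a choice is shown. The genes and the lists were chosen with earlier results of these data known, and the comparisons with WT–mCherry references were added after the data were seen.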

Additional observations from a re-analysis of the deposited data

Results flagged for a closer look

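In 5 cases the difference between populations changed between 120 and 144 h by a test of that change (edgeR, Benjamini-Hochberg adjusted over 21132 genes). For p53KO–emiRFP against WT–emiRFP cells these were Sox1 (1.94 ± 0.23 on the log2 scale, edgeR adjusted p = 2.2e-09), Sox3 (1.25 ± 0.22, edgeR adjusted p = 3.0e-05) and Irx3 (1.75 ± 0.25, edgeR adjusted p = 2.2e-07). All 3 were higher in p53KO–emiRFP cells by more at 144 h than at 120 h, and the WT–emiRFP means of all 3 were lower at 144 h than at 120 h. For the neighbour's effect on WT–mCherry cells these were Hes5 (-2.43 ± 0.45, edgeR adjusted p = 0.00024), which was higher beside p53KO cells at 120 h and lower at 144 h, and Nkx6-1 (-1.77 ± 0.47, edgeR adjusted p = 0.011), which was not called without replicate 1, 2 or 3 (edgeR adjusted p = 0.053, 0.13 and 0.082).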

How the results depend on the processing

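Across all alternatives, 199 of 253 counts of genes called lay within 1.5 times the reported count and 54 did not, and of 874 calls of single genes 804 held, 67 were lost and 3 turned. TMM scaling moved no count, and 229 of 230 group means stayed within 1 SD. The turned values, all against WT–mCherry cells of WT + WT gastruloids, were Sox1 at 120 h (-0.40) and Pax6 (-0.18) and Dbx1 (-0.77) at 144 h. Against that reference the p53KO counts went from 1 to 3 at 0 h, 1 to 2 at 48 h, 0 to 1 at 72 h and 2 to 4 at 96 h, and against the same gastruloids from 1 to 2 at 48 h and 0 to 1 at 72 h.

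With the replicate block, p53KO at 48 h went from 1 to 2, the neighbour comparison from 0 to 2 at 48 h, 1 to 2 at 72 h, 0 to 3 at 96 h and, where the numbers did not pair the samples, 2 to 4 at 120 h, and the clone comparison from 1 to 4 at 48 h, 0 to 2 at 96 h and 1 to 2 at 120 h. The block lost none of the 109 calls. The share of all tested genes called with the block is not given, so these larger counts have no background beside them. Without the filter, p53KO at 48 h went from 1 to 2, the neighbour from 0 to 1 at 48 h, 1 to 2 at 72 h and 2 to 4 at 120 h, and the clones from 0 to 1 at 96 h and 1 to 2 at 120 h. With DESeq2 the clones went from 1 to 2 at 48 h and the neighbour from 1 to 2 at 72 h, 0 to 1 at 96 h and 2 to 4 at 120 h. With only the compared groups, which leaves fewer samples, p53KO at 0 h and the neighbour at 72 h went from 1 to 0 and the clones at 72 h from 2 to 1. With all 69 libraries the clones at 0 h and the neighbour at 72 h went from 1 to 2, p53KO at 96 h from 2 to 1 and the neighbour at 120 h from 2 to 4. The cause of these moves was otherwise not tested.

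With 1 replicate left out, counts ranged from 0 to 1 for p53KO at 0 h, 1 to 3 at 96 h and 2 to 4 at 120 h. They were 0 each time for the clones at 48 h and the neighbour at 72 h, and ranged from 0 to 2 for the clones at 72 h, 0 to 1 for the neighbour and the clones at 120 h, 2 to 6 for the neighbour at 144 h, 5 to 8 for the p53KO step from 96 to 120 h and 6 to 10 from 120 to 144 h. For the change of the neighbour's difference the count was 1 each time. Low counts limit Olig2, Neurog2, Dbx1 and Nkx6-1, with libraries at 0 in 7, 3, 28 and 1 cases.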
